A study of Mus musculus with 8 samples.

Results

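A set of 7 genes at the head of the Nodal pathway was followed through 4 chromatin maps of differentiating mouse embryonic stem cells. They were the ligands Nodal and Gdf3, the coreceptors Tdgf1 and Cfc1, the antagonists Lefty1 and Lefty2, and the transcription factor Foxh1. These 7 of 21887 protein-coding genes were listed by name, and every peak in a gene or within 20 kb of it was collected. Chromatin immunoprecipitation and sequencing (ChIP-seq) had mapped histone H3 acetylation (H3ac), which marks promoters and enhancers in use, on days 2, 4 and 6, and HDAC1, an enzyme that removes such acetyl groups, on day 2. All cells were of the 129/Ola strain and had been plated on gelatin in serum-free N2B27, a medium without serum factors in which many stem cells turn to a neural fate. HDAC1 carried a FLAG tag and was precipitated with a Sigma antibody, and H3ac with a Millipore antibody. Each target and day had 1 ChIP and 1 input library, so no difference below has a replicate check and no p-value was computed. A peak call also depends on depth and on the caller, and the peak lists give no read counts, so a gene without a peak may still be acetylated or bound. In such bulk samples, fewer cells with a mark and less of the mark per cell cannot be told apart.

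Nodal is a secreted ligand of the TGF-beta family that patterns the early embryo and directs pluripotent cells toward mesendoderm. It signals through activin receptors together with a membrane-anchored EGF-CFC coreceptor, which Tdgf1 (Cripto) and Cfc1 (Cryptic) encode. The receptors phosphorylate Smad2 and Smad3, and Foxh1 brings the activated Smad complex to DNA. Nodal and the Lefty genes are themselves targets of the pathway, and the Lefty proteins block it from outside the cell, which closes a feedback loop.

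The H3ac lists of days 2, 4 and 6 had 17368, 12945 and 5553 peaks, and the HDAC1 list had 5286. Median widths were 591, 792 and 1898 bp for H3ac and 311 bp for HDAC1. Peaks of H3ac no more than 1 kb from either end of the gene were listed for 6, 1 and 1 of 8 pluripotency markers on days 2, 4 and 6. For 5 neural progenitor markers the numbers were 1, 4 and 2, and for 6 mesendoderm markers 0 on each day. None of the 4 extraembryonic endoderm or 4 trophoblast markers had one on any day. Of all protein-coding genes, 40.6%, 38.0% and 23.3% had such a peak on those days. Within 20 kb the counts were 8, 5 and 2 for pluripotency, 3, 5 and 4 for neural progenitor, 1, 1 and 0 for mesendoderm, 2, 1 and 0 for extraembryonic endoderm and 1, 0 and 0 for trophoblast markers, against 59.6%, 55.6% and 35.8% of all genes. Coordinates are 1-based, in build mm10. The score of a peak is the authors' own, with no value below 50, and ranks peaks only within its list.

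Start windows matched 3 of the 7 genes by symbol, Nodal, Tdgf1 and Cfc1, and not Gdf3, Lefty1, Lefty2 and Foxh1. Those of a pair of neighbours, Tmem63a and Apobec1, are added because a peak near Lefty1 or Gdf3 lay on them. The start windows, from 250 bases before to 50 bases after the start and credited to RefSeq (GRCm38.p6), are shown because they tell which gene's start a peak covered. Capitals mark the bases under an H3ac peak of day 2 in the first 4 windows and of day 6 in that of Apobec1. The Nodal window is chr10:61417722-61418021, plus strand. The Tdgf1 window is chr9:110946109-110946408, minus strand. The Cfc1 window is chr1:34535398-34535697, plus strand. The Tmem63a window is chr1:180942268-180942567, plus strand. The Apobec1 window is chr6:122602395-122602694, minus strand.
Tdgf1: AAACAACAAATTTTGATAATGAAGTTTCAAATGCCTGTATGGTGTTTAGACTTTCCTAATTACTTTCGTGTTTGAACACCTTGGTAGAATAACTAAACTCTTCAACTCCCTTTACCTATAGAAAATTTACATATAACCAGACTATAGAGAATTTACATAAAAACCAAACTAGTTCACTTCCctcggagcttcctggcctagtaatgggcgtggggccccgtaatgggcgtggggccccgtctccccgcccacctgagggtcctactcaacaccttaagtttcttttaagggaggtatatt
Nodal: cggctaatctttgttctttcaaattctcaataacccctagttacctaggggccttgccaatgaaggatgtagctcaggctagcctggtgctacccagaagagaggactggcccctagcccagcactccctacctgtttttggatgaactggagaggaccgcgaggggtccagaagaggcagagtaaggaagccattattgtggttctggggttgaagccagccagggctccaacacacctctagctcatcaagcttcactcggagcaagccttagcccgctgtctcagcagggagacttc
Cfc1: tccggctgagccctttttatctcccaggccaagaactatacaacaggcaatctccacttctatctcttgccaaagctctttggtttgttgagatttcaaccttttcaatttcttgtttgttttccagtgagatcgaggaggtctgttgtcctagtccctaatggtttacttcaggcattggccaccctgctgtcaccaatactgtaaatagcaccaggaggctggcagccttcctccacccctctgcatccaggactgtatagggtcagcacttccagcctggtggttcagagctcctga
Tmem63a: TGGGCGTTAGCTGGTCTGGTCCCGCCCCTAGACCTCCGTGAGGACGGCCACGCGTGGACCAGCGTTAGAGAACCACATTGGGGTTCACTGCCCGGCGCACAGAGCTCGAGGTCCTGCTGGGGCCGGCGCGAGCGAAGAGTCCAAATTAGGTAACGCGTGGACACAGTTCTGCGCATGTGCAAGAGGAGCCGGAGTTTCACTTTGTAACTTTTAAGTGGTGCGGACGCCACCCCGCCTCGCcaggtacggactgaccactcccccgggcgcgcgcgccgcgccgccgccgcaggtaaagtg
Apobec1: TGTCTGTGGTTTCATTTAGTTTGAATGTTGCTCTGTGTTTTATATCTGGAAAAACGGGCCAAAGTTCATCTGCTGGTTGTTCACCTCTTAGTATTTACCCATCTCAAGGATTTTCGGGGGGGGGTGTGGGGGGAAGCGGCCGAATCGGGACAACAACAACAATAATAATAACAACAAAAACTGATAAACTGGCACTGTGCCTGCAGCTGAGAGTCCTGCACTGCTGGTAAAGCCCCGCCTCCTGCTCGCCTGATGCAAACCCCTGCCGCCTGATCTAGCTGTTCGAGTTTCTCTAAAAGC

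The Tdgf1 window was covered over 181 of its 300 bases on day 2, all of them upstream of the start, and the Nodal and Cfc1 windows over 0 bases in every list. The Tmem63a window was covered over 240 bases on day 2 and the Apobec1 window over all 300 bases on day 6. Among 21238 start windows of protein-coding genes, H3ac peaks of days 2, 4 and 6 overlapped 29.0%, 27.1% and 21.3%, and HDAC1 peaks 4.75%. Base composition differed among the windows. GC content was 41.7% in the Tdgf1 window, 54.0% in that of Nodal and 49.0% in that of Cfc1, with 7, 5 and 2 CpG dinucleotides. The Tmem63a window had 65.0% and 33 CpG, and the Apobec1 window 48.3% and 9. Windows overlapped by a day 2 H3ac peak had medians of 62.0% and 23 CpG, and windows under no H3ac peak 51.3% and 5. The 7 CpG of the Tdgf1 window thus lay below the median of the windows marked on day 2.

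Short motifs were searched in these windows on both strands. They were TGTGGATT and TGTNNATT, a looser form that includes it, for FOXH1, GTCTAGAC and CAGAC for SMAD proteins, ATGCAAAT (the octamer), GGGCGG for SP and KLF factors, and TATAAA. Counting the start site as position 0, the Tdgf1 window held TGTNNATT at positions -127 and -101, both read on the opposite strand as AATTTACA, and CAGAC at -113. All 3 matches lay in the upstream part under the day 2 peak, while GGGCGG at -6, again on the opposite strand, lay in the stretch between peaks. The Cfc1 window held CAGAC alone, at -110 on the opposite strand, and the Nodal window held none of the 7. The Tmem63a window held CAGAC at -237 and GGGCGG at -229, and the Apobec1 window CAGAC at -249 and TATAAA at -212, all on the opposite strand. Of all 21238 windows, 0.8% held TGTGGATT, 10.4% TGTNNATT, 0.2% GTCTAGAC, 48.4% CAGAC, 1.7% ATGCAAAT, 46.2% GGGCGG and 12.6% TATAAA, and a match is a run of letters, not a shown binding site.

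Across the 7 genes, H3ac peaks were listed at or near most of them on day 2 and at fewer later, in lists that were themselves shorter. On day 2, 6 of 7 genes had an H3ac peak inside them or within 20 kb (85.7%, against 59.6% of all protein-coding genes). On day 4 there were 3 (42.9%, against 55.6%), and on day 6 there were 3 (42.9%, against 35.8%). HDAC1 peaks were listed for 3 (42.9%, against 27.1%). With the 5286 top-scoring peaks of each list, the H3ac counts were 4, 2 and 3 of 7 on days 2, 4 and 6, so days 2 and 6 then differed by 1 gene. Under that rule 7790, 7869 and 7589 of all 21887 protein-coding genes had a peak. Within 1 kb of a gene end, the day 2 count was 4 of 7 (57.1%, against 40.6%), with Nodal, Gdf3, Tdgf1 and Foxh1. On day 4 it was 1 (14.3%, against 38.0%), Foxh1, and on day 6 it was 2 (28.6%, against 23.3%), Foxh1 and Tdgf1. For HDAC1 it was 0, against 9.40%. With only the higher-scoring 50% of each list the day 6 count within 20 kb was 1, against 4550 of the 21887. Within 5 kb the day 4 count was 1, against 10329. With 7 genes, 1 gene moves a share by 14.3 percentage points. On day 4 the 7 genes lay below all genes under each of the 7 distance and score rules tried, as the bar plot by rule shows. These rules re-count peaks of the same library, so they are not separate checks. Under the 20 kb rule the gap on day 4 (42.9% against 55.6%) was smaller than the share of 1 gene.

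**Figure D1:**
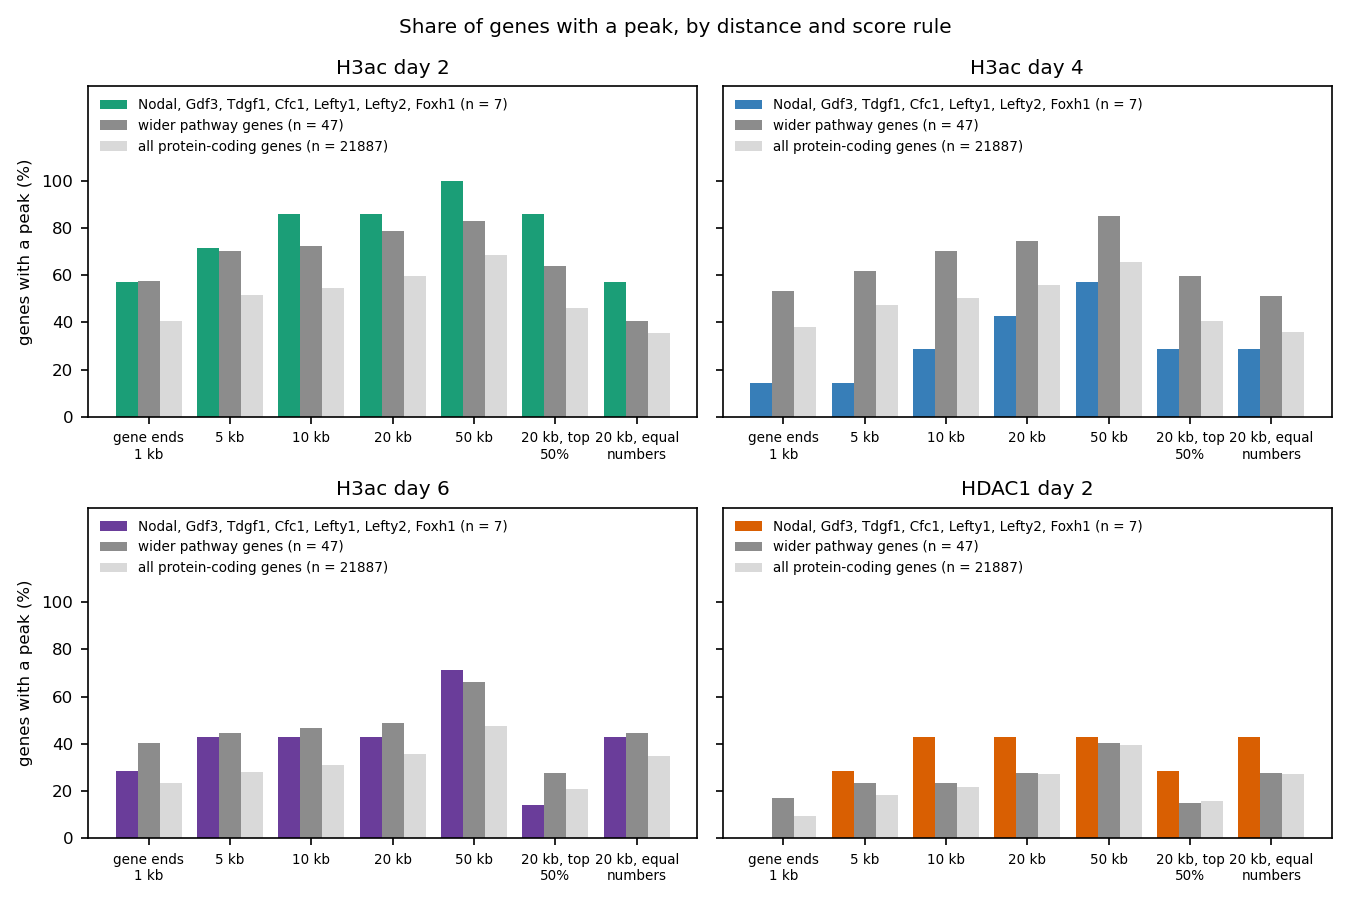
Share of genes with a peak (y axis, %) in the 4 peak lists, by the distance or score rule (x axis), for the 7 genes, 47 other pathway genes and all 21887 protein-coding genes. The 7 genes stood at 85.7% on day 2 and 42.9% on day 4 under the 20 kb rule, against 59.6% and 55.6% of all genes.

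Most of these peaks lay in or nearer to a neighbouring gene. Of 29 peaks in or within 20 kb of a gene, 9 overlapped it, and for 11 it was the nearest protein-coding gene, in 1 case together with Ppp1r16a. These 11 fell on Nodal, Gdf3, Tdgf1 and Foxh1, and the other 18 lay in or nearer to a neighbour. By list, the gene was the nearest for 5 of 16 H3ac peaks on day 2, 2 of 6 on day 4 and 2 of 4 on day 6, and for 2 of 3 HDAC1 peaks. Among those 18, Cyhr1 took 4, Lrrc2 3, Eif4ebp2, Ppp1r16a and Tmem63a 2 each, and Apobec1, Dppa3 and Kifc2 1 each. The peaks nearest to the limit were both in Eif4ebp2, 18345 bp (day 4) and 19884 bp (day 2) from Nodal. The first outside it lay 25891 to 26313 bp from Nodal, also in Eif4ebp2, 1 on each day.

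**Figure D2:**
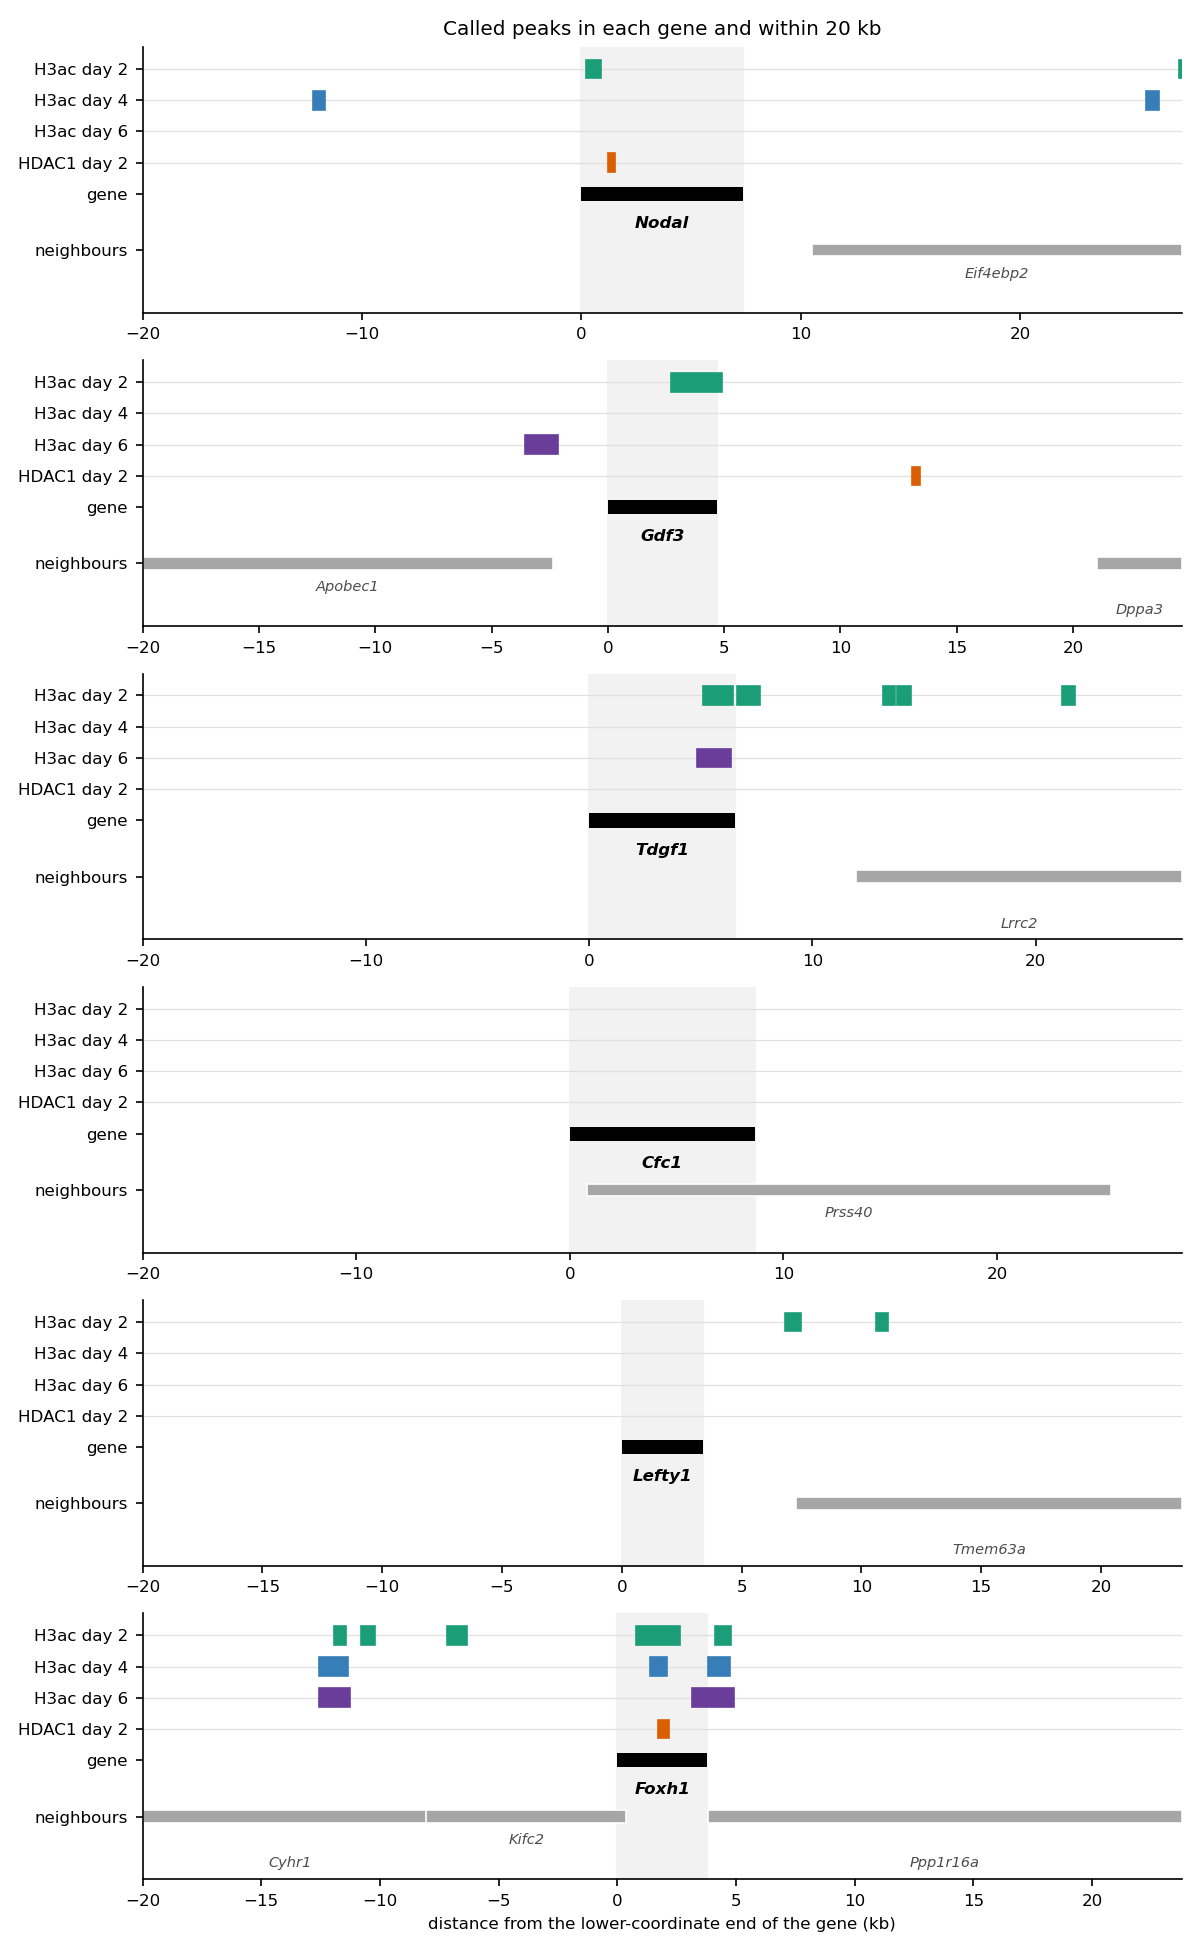
Peaks of the 4 lists (coloured bars) around Nodal, Gdf3, Tdgf1, Cfc1, Lefty1 and Foxh1 (black) and neighbouring protein-coding genes (grey), against distance in kb from the lower-coordinate end of the gene. No peak lies within 20 kb of Cfc1, and both peaks near Lefty1 lie over Tmem63a.

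Among the ligands, Nodal carried H3ac just inside its start on day 2 and had no H3ac peak over it afterwards. Nodal (gene ID 18119) lies at chr10:61417972-61425338 on the plus strand. Its day 2 peak, chr10:61418192-61418866, ran from 220 to 894 bp downstream of the start and was 675 bp wide, with score 111.94 and rank 5805 of 17368. The printed Nodal start window ends before this peak begins. No H3ac peak overlapped Nodal on day 4 or day 6. The day 4 list had a peak upstream of the gene, chr10:61405715-61406283, 11689 bp from it, with Nodal as the nearest gene and the low score of 59.54 (rank 10386 of 12945). The remaining peaks within 20 kb were the pair in Eif4ebp2, a gene for a repressor of translation, with scores of 80.80 on day 2 and 50.52 on day 4.

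HDAC1 sat inside Nodal next to the day 2 acetylation without overlapping it. The HDAC1 peak, chr10:61419161-61419487, began 1189 bp and ended 1515 bp downstream of the start, 295 bp beyond the edge of the H3ac peak. Its score of 52.87 was close to the lowest of its list, at rank 4475 of 5286. Across all protein-coding genes, 13.8% were overlapped by an HDAC1 peak.

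Gdf3 had one of the strongest and widest H3ac peaks of day 2, and no peak over it later. Gdf3 (gene ID 14562), a ligand of the same family that is expressed in pluripotent cells and acts with Nodal in the early mouse embryo, lies at chr6:122605403-122610087. Its day 2 peak, chr6:122608136-122610312, covered the higher-coordinate end of the gene with score 538.31, rank 285 of 17368. It was 2177 bp wide, and 1.2% of the day 2 peaks were at least as wide. The nearest day 4 peak was 105747 bp away, and 74.3% of protein-coding genes had one as near or nearer. The day 6 list held a peak 2139 bp away, chr6:122601856-122603264, with score 77.17 (rank 4193 of 5553). That peak lay on Apobec1, which encodes an RNA-editing cytidine deaminase, and covered the whole Apobec1 start window printed above. An HDAC1 peak, chr6:122618499-122618815, was the highest-ranked HDAC1 peak near any of the 7 genes, with score 156.04 and rank 318 of 5286. It lay between genes, 8412 bp from Gdf3 and 7609 bp from Dppa3, a gene of pluripotent and germ cells, and no H3ac peak overlapped it.

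Of the coreceptors, Tdgf1 was acetylated on both sides of its start on day 2 and downstream of it on day 6, while Cfc1 had no peak in any list. Tdgf1 (gene ID 21667), which is highly expressed in mouse embryonic stem cells, lies at chr9:110939608-110946158 on the minus strand. The downstream day 2 peak, chr9:110944715-110946053, spanned 105 to 1443 bp into the gene with score 226.62 (rank 2043). The upstream one, chr9:110946228-110947238, had score 175.07 (rank 3193) and is the stretch in capitals in the Tdgf1 window. Between them lay 174 bp that held the start site. Of the 21238 start windows, 3.72% had their start in such a gap of at most 500 bp between a pair of day 2 peaks. The day 6 peak, chr9:110944429-110945954, ran from 204 to 1729 bp downstream of the start and overlapped the downstream day 2 peak, with score 76.16 (rank 4240 of 5553). No day 4 peak lay closer than 58884 bp and no HDAC1 peak closer than 59244 bp. The gene was therefore listed on days 2 and 6 and missing from the day 4 list. A reason for its absence on day 4 was not tested. A further 3 day 2 peaks within 20 kb, with scores of 50.87 to 73.52, lay inside Lrrc2.

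Cfc1 (gene ID 12627) lies at chr1:34535648-34544311, and Prss40, a serine protease gene, overlaps it. Cfc1 is known for its role in left-right patterning, which follows gastrulation. Its nearest peak of any list was a day 2 H3ac peak of score 51.09, 35637 bp away in Amer3. The nearest peaks lay 75595 bp away on day 4 and 99890 bp away on day 6, and the nearest HDAC1 peak 96250 bp away. The same absence from all 4 lists under the 20 kb rule was shared by 6935 genes, 31.69% of all.

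**Figure D3:**
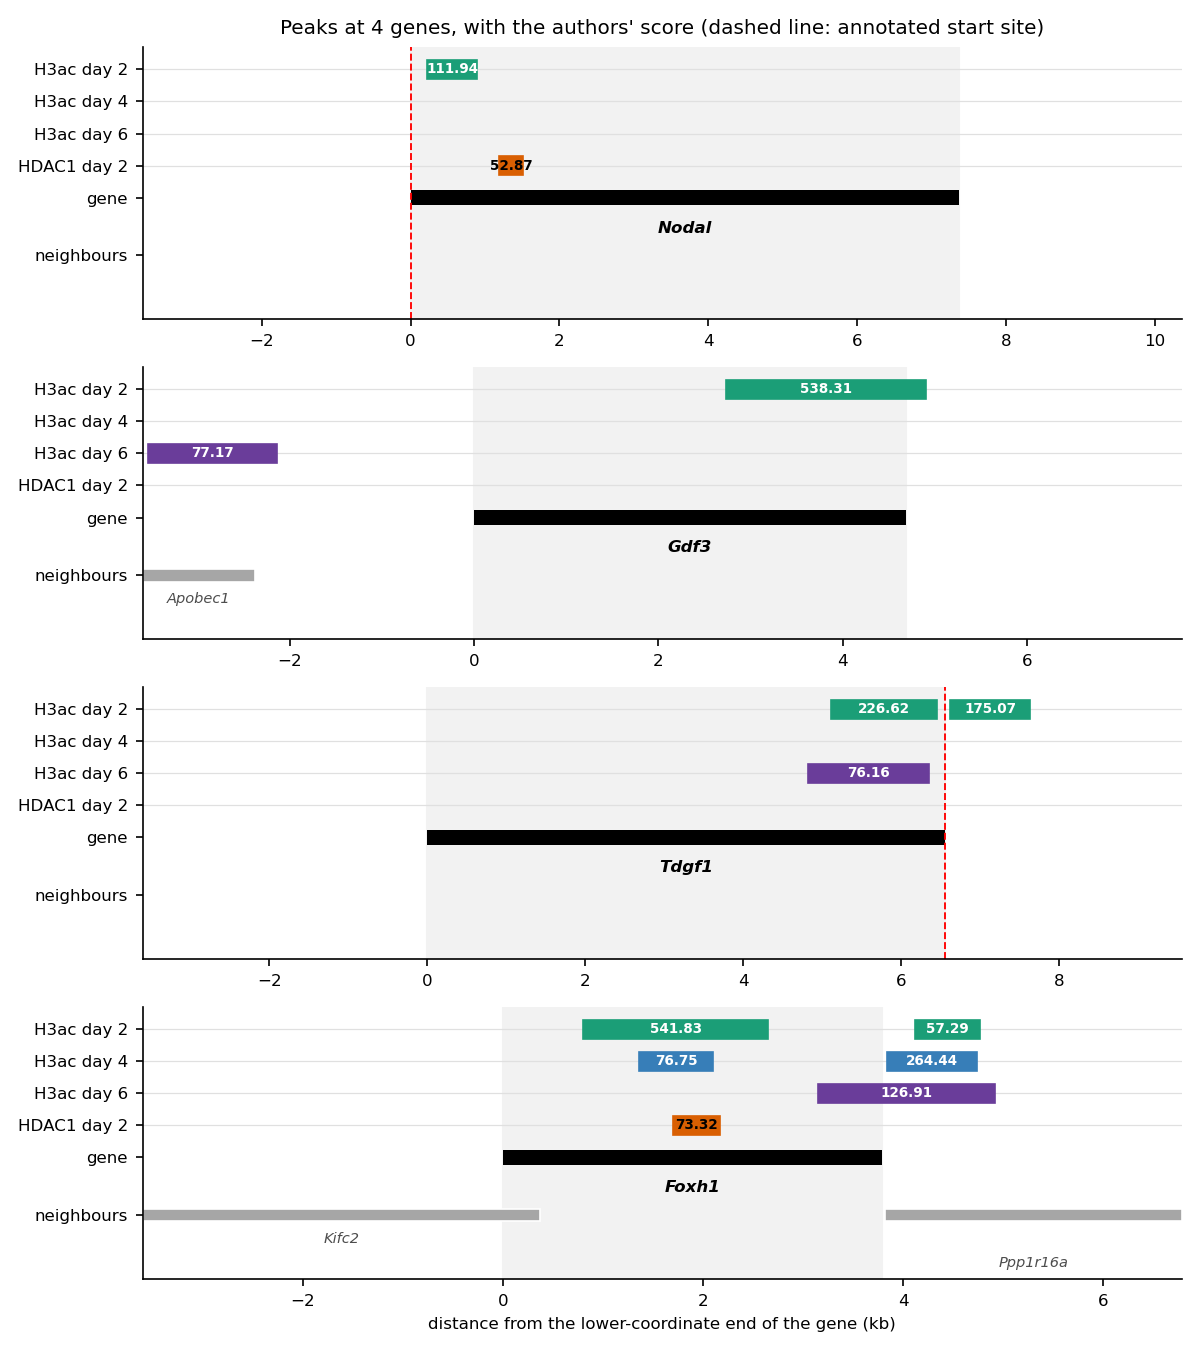
Peaks at Nodal, Gdf3, Tdgf1 and Foxh1 with the authors' score in each bar, against distance in kb from the lower-coordinate end of the gene, where dashed lines mark annotated start sites. The start of Tdgf1 falls in the 174 bp between a pair of day 2 peaks, and the HDAC1 peak of Nodal lies beyond its day 2 H3ac peak.

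No peak of any list overlapped either antagonist or had it as the nearest gene. Lefty2 (gene ID 320202, chr1:180893108-180899107) and Lefty1 (gene ID 13590, chr1:180935022-180938401) lie 35915 bp apart. Near Lefty1, the day 2 list had peaks of score 82.84 and 56.92, at 3419 and 7236 bp. Both lay over Tmem63a, which encodes a membrane channel protein, and the first, chr1:180941820-180942507, covered most of the Tmem63a start window. No day 4 or day 6 peak was within 20 kb of Lefty1. For Lefty2, nothing was listed within 40710 bp on day 6. The nearest HDAC1 peaks were 172676 bp from Lefty1 and 130762 bp from Lefty2.

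Foxh1 was the only one of the 7 with a peak in all 4 lists and the only one where HDAC1 and H3ac peaks overlapped. Foxh1 (gene ID 14106) lies at chr15:76667829-76671614 in a gene-rich stretch. Kifc2, a kinesin gene, overlaps its lower-coordinate end, Ppp1r16a, which encodes a regulatory subunit of protein phosphatase 1, begins 29 bp beyond the other end, and Cyhr1 is 7621 bp away. Of all protein-coding genes, 21.1% had at least these 3 neighbours within 20 kb, and the median was 1. Peaks at Foxh1 are placed by gene ends.

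Within the lists, the order of the peaks at Foxh1 differed between days 2 and 4. On day 2 the internal peak, chr15:76668627-76670481, led by far, with score 541.83 (rank 276 of 17368) and a width of 1855 bp. The day 2 peak beyond the Ppp1r16a end, chr15:76671943-76672597, scored 57.29 (rank 13945). On day 4 the internal peak, chr15:76669191-76669928, scored 76.75 (rank 8202 of 12945), and the one at Ppp1r16a, chr15:76671663-76672568, scored 264.44 (rank 1619). On day 6 the internal position had no peak, and a single peak across the end shared with Ppp1r16a, chr15:76670975-76672749, scored 126.91 (rank 2710 of 5553). The internal peak was thus the higher of the pair on day 2 and the lower on day 4, and the one at the Ppp1r16a end may belong to either gene. The internal peak overlapped Foxh1 alone, but Kifc2 reaches chr15:76668196, just short of it on day 2, so its owner is not settled either. Scores of different lists are not compared here, only their order within a list.

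The HDAC1 peak of Foxh1, chr15:76669526-76670001, lay wholly within the internal H3ac peak of day 2 and overlapped that of day 4. It was 476 bp wide, with score 73.32 and rank 1988 of 5286. A day 6 H3ac peak did not reach it. Further peaks lay 6320 bp or more away over Kifc2 and Cyhr1. A Cyhr1 peak recurred on all 3 days, with scores of 75.28 on day 2, 150.97 on day 4 and 91.41 on day 6.

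**Figure D4:**
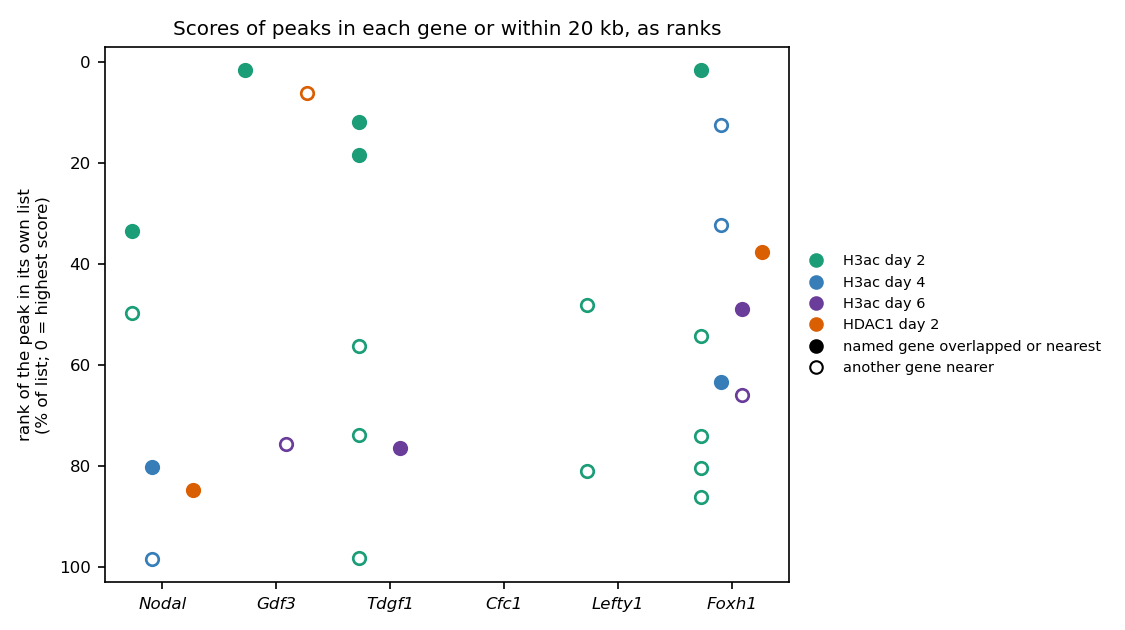
Rank of each peak within its own list, as a percentage of the list from the highest score (0) down (y axis), for Nodal, Gdf3, Tdgf1, Cfc1, Lefty1 and Foxh1 (x axis). Filled points are peaks whose nearest gene is the one named, and the day 2 peaks of Gdf3 and Foxh1 stand at 1.64% and 1.59%.

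The 5 day 2 H3ac peaks that had one of the 7 as nearest gene ranked 276 (Foxh1), 285 (Gdf3), 2043 and 3193 (Tdgf1) and 5805 (Nodal) of 17368, all within the top 33.42% of the list. A day 4 peak overlapped 1 of the 5, at Foxh1, and a day 6 peak overlapped 1, at Tdgf1. HDAC1 overlapped 1, at Foxh1. Of all 16 day 2 peaks within 20 kb, day 4 peaks overlapped 4 (25.0%, against 50.2% of all day 2 peaks), day 6 peaks 3 (18.8%, against 35.0%) and HDAC1 peaks 1 (6.25%, against 8.26%).

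The remaining pathway comprised 47 further genes, from furin-type proteases to Smad proteins and target genes. On day 4 a larger share of them than of the 7 genes had H3ac under both the gene-end and the 20 kb rule. For H3ac on day 2 and for HDAC1, which group was higher changed with the rule. By the gene-end rule the 7 genes stood at 57.1%, 14.3% and 28.6% on days 2, 4 and 6, against 57.4% (27 of 47), 53.2% (25) and 40.4% (19) of the further genes. For HDAC1 the gene-end count was 0 of the 7, against 8 of the 47 (17.0%). The HDAC1 peaks inside Nodal and Foxh1 lay 1189 and 1613 bp from the nearer gene end, beyond the 1 kb limit. Over all protein-coding genes the gene-end shares were 40.6%, 38.0% and 23.3% for H3ac and 9.40% for HDAC1. Under the 20 kb rule 37 (78.7%), 35 (74.5%) and 23 (48.9%) of the 47 had H3ac, against 59.6%, 55.6% and 35.8% of all genes. The 7 genes stood at 85.7%, 42.9% and 42.9% there, where 1 gene moves their share by 14.3 percentage points. The HDAC1 share of the 47 under the 20 kb rule, 13 genes (27.7%), was close to the 27.1% of all genes, and 3 of the 7 (42.9%) had HDAC1. The difference from the 7 genes was not tested, and a gene-end peak of the 47 may belong to a neighbour, which was not examined. On all 3 days 17 of the 47 had a gene-end H3ac peak, and 16 had none on any day. The matching shares of all genes are not given here, so neither count can be read as high or low.

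The counts by role rest on 3 to 9 genes each and were not tested. Of 9 intracellular and membrane inhibitors, 8, 8 and 6 had a gene-end H3ac peak on days 2, 4 and 6 (88.9%, 88.9% and 66.7%, against the 40.6%, 38.0% and 23.3% of all genes), led on day 2 by the corepressor genes Tgif1 (score 553.32, rank 257) and Skil (484.57, rank 374). Of 6 receptors the numbers were 4, 5 and 4, led by the type II receptor gene Acvr2b (260.25) and the type I receptor gene Acvr1b (103.29). Of 9 Smad genes and partners they were 6, 6 and 5, led by Yap1 (281.26), a coactivator gene, and Trim33 (183.46), whose product binds Smad proteins. Of 5 antagonists they were 3, 3 and 3, led by Dand5 (241.59), which encodes a secreted Nodal antagonist, and Tmeff1 (220.27), whose product binds the coreceptor in Xenopus. Cer1, a secreted Nodal antagonist gene like the Lefty genes, had no peak within 20 kb in any list.

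The gene-end and 20 kb counts of ligands and targets differed. Of 6 other ligand genes 1, 0 and 1 had a gene-end H3ac peak on days 2, 4 and 6, and the day 2 one was Tgfb1 (135.85). Of 3 genes for proteases that cleave ligand precursors, 2, 2 and 0 had one, with Pcsk5 (96.38) and Pcsk6 (50.35) on day 2. Of 9 target genes 3, 1 and 0 had one, led by Pou5f1 (1035.01), which encodes the pluripotency factor Oct4, and Wnt3 (55.85), a Wnt ligand gene. The gene-end shares of all genes were 40.6%, 38.0% and 23.3% on those days. Within 20 kb, 4, 3 and 2 of the 6 ligand genes and 6, 6 and 2 of the 9 target genes had H3ac on days 2, 4 and 6. Both stood at 66.7% on day 2, against 59.6% of all genes, and targets at 66.7% on day 4, against 55.6%. On day 6 ligands stood at 33.3% and targets at 22.2%, against 35.8%.

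HDAC1 gene-end peaks fell on Pou5f1 (score 145.14), Trim33 (97.90), Smurf2 (92.42), Ppm1a (85.22), Tgif2 (61.86), Tgif1 (53.16), Skil (52.43) and Dand5 (52.13). Of these, 5 are among the 9 inhibitors (55.6%, against 9.40% of all protein-coding genes). A gene-end H3ac peak of day 2 was listed for 8 of the same 9. The scores of Tgif1, Skil and Dand5 were close to 50, the lowest of the HDAC1 list. Smurf2 encodes a ubiquitin ligase, Ppm1a a phosphatase and Tgif2 a corepressor of Smad proteins. The combination of lists found at Nodal under the 20 kb rule, H3ac on days 2 and 4 and HDAC1 but no H3ac on day 6, was shared by 1549 protein-coding genes (7.08%), and among the 47 by Furin, a protease gene, Fstl3, which encodes an activin-binding protein, and Pou5f1. That of Foxh1, a peak in every list, was found at 2956 genes (13.51%), that of Lefty2 at 2407 (11.0%), that of Lefty1 at 1232 (5.63%), that of Tdgf1 at 258 (1.18%) and that of Gdf3 at 79 (0.36%). The Gdf3 combination rests on the Apobec1 peak of day 6 and an HDAC1 peak nearer to Dppa3. Those of Lefty1 and Lefty2 rest wholly on peaks in or nearer to a neighbouring gene.

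**Figure D5:**
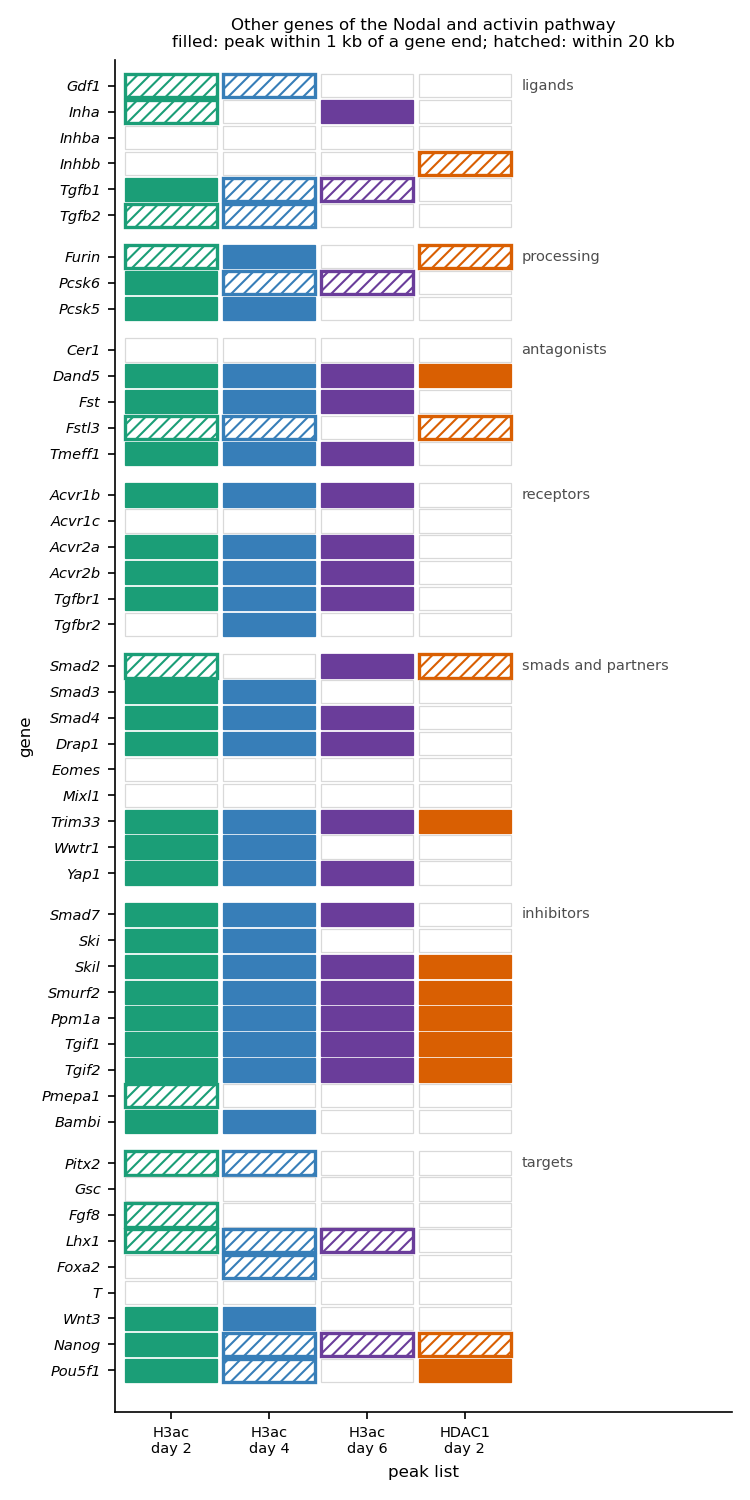
The 47 other genes of the Nodal and activin pathway (y axis, by role) in the 4 peak lists (x axis). Filled boxes are genes with a peak within 1 kb of a gene end, hatched boxes a peak only in the gene or within 20 kb, and 17 genes are filled on all 3 H3ac days.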

How the data were processed

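The submitters' processing notes name Bowtie 0.12.8 and build mm10. The authors deposited 1 list of called peaks per ChIP library, and its 5th column is the authors' score, on a scale not given in the sources used here. Peak names begin with MACS. Which version called them, at what threshold and whether against input is likewise not given in the sources used here.

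Genes came from the RefSeq table of GRCm38.p6, the assembly of mm10 (21887 protein-coding genes, autosomes and sex chromosomes), used without exons, so exons, introns and UTRs were not told apart. Distances run between nearest edges. Python 3.11.15, numpy 2.4.6 and pandas 2.3.3 were used. Peaks overlapped when they shared at least 1 bp. Distances were tested on simulated peaks. The read depth is unknown.

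The 7 genes and all lists were chosen with earlier results of these data known. Of the 47 other pathway genes, those named had the 2 highest day 2 gene-end scores of their role, an HDAC1 gene-end peak, or the pattern of Nodal. Others named were chosen after their values were seen. The peaks near Lefty2 are counted but not described singly, since 1 result that they need is not reported here.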

Additional observations from a re-analysis of the deposited data

How the results depend on the processing

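No paired analysis was possible because each target and day had 1 ChIP library. Of 124 recomputed counts, 81 stayed within 1.5 times the value reported and 43 did not. Values are given in the order H3ac day 2, day 4, day 6 and HDAC1 where all 4 are listed. Within 5 kb, day 4 peaks were listed at 1 of the 7 genes, and the numbers of peaks were 7 on day 2 and 2 on day 4. Within 10 kb there were 3 day 4 peaks. Within 50 kb, 5 genes had a day 6 peak, and there were 29 peaks on day 2, 17 on day 4 and 6 of HDAC1. At gene ends, 1 gene had a day 4 peak and 0 an HDAC1 peak, with 6, 1, 2 and 0 peaks, and 5096 of all genes had a day 6 peak, 2057 an HDAC1 peak and 8 of the 47 pathway genes an HDAC1 peak.

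With the higher-scoring 50% of each list, 1 gene had a day 6 peak and the lists held 8, 3 and 1 H3ac peaks. All genes with a peak numbered 4550 on day 6 and 3415 for HDAC1, and pathway genes 13 and 7. With only the 5286 best-scoring peaks of each list, there were 5 peaks on day 2, without that of Nodal, and 3 on day 4. All genes numbered 7790 on day 2 and 7869 on day 4, and pathway genes 19 on day 2. The 7 genes were nearest to 0 day 4 peaks under either score rule, and to 1 day 6 and 1 HDAC1 peak with the higher-scoring 50%. Measured from peak midpoint to start site, the 7 genes were nearest to 4, 1, 1 and 1 peaks, in place of 5, 2, 2 and 2. Genes without a start site here, Foxh1 among them, were measured from their nearer end. The nearest gene of a peak thus depended on how distance was measured. Of the day 2 peaks, 1 was overlapped on day 4 under either score rule, and 1 (equal numbers) or 0 (higher-scoring 50%) on day 6. Counting peaks within 1 kb of each other, 6 were matched on day 6 and 2 by HDAC1, the second being that of Nodal. Fewer peaks or a shorter distance give lower counts by construction.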
